A study of Mus musculus with 16 samples.

Results

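Class 3 semaphorins are secreted guidance cues that were first studied in growing axons. They bind neuropilins at the cell surface, and plexins that pair with the neuropilins pass the signal on to the cytoskeleton. Neuropilins also bind members of the VEGF family, and furin-type proteases cut class 3 semaphorins and change their activity. Vessels, lymphatics and nerves, all of which these cues can act on, run through the stroma of the colon.

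The family was followed here on arrays of cells sorted from mouse colon. It was taken as 6 ligands, Sema3a, Sema3b, Sema3c, Sema3d, Sema3e and Sema3f, and the 2 neuropilins, Nrp1 and Nrp2. Members were selected by gene symbol, and all 21 probe sets that the platform table names for one of these genes alone were used. These are 8 of the 17097 genes measured. The family was chosen after an earlier description of the same arrays had shown Sema3a high in ZsGreen-high cells, so that difference is given below without a test. The other calls are descriptions and support nothing independently.

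The colons came from 4 C57BL/6 mice of the genotype Gli1CreERT2-ZsGreen, in which a tamoxifen-dependent Cre is tied to Gli1, a transcriptional effector of Hedgehog signalling, and marks cells with the green protein ZsGreen. Each mouse received 1 mg tamoxifen into the peritoneum on 5 days in a row, and colons were taken on day 6 (the labels also give the time as 5 days after injection). Cells sorted as Epcam- CD45- CD31- gp38+ were divided into Sca1+ ZsGreen-high, Sca1+ ZsGreen-dim, Sca1+ ZsGreen-negative and Sca1- ZsGreen-negative cells, with 4 arrays per population, 1 from each mouse. All 4 populations, ZsGreen-negative cells included, carried the transgene and saw tamoxifen. The label records Cre activity after tamoxifen and need not follow Gli1 at the time of the sort, and a ZsGreen-negative cell may have escaped labelling. RNA (2 ng per sample) was amplified before hybridization.

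The sort gene Gli1 had mean signals of 2611 ± 321 in ZsGreen-high, 2323 ± 322 in ZsGreen-dim, 1104 ± 299 in Sca1+ ZsGreen-negative and 921 ± 318 in Sca1- cells (SD, n = 4 each). Fibroblast markers (10 of 10 measured) were above the array background in all 4 populations. Markers of colon epithelium (17 of 18 measured) were also above it on every array, although the sort took Epcam- cells: their mean log2 signal ran from 10.85 to 12.82 in ZsGreen-high, 12.79 to 13.86 in ZsGreen-dim, 13.62 to 14.30 in Sca1+ ZsGreen-negative and 13.32 to 14.38 in Sca1- cells. Arrays of mouse 2 did not match one another. Xist, which is transcribed from the inactive X chromosome, had signals of 189 and 172 on its ZsGreen-high and ZsGreen-dim arrays. On its Sca1+ and Sca1- ZsGreen-negative arrays the signals were 25502 and 28550. These do not look like arrays of 1 animal, and the labels of mouse 2 may be mixed up. Over all 16 arrays, Xist was at background on 6, where the Y-linked gene Eif2s3y had signals of at least 2901. Eif2s3y was at most 197 on the rest. Those 6 arrays were 2 of 4 in ZsGreen-high, 2 of 4 in ZsGreen-dim and 1 of 4 in each ZsGreen-negative population. The populations thus differ in their share of such arrays, and the part of this in the differences below was not tested. Results are given with and without mouse 2 where a call depended on it, and fits with mouse as a block and counts out of 4 mice take its labels as given. The Sca1- array of mouse 1 also stood apart, with the highest blood endothelial (10.90), lymphatic endothelial (11.46), smooth muscle (12.09) and fibroblast (13.92) marker means of the Sca1- arrays and the lowest epithelial mean.

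**Figure D1:**
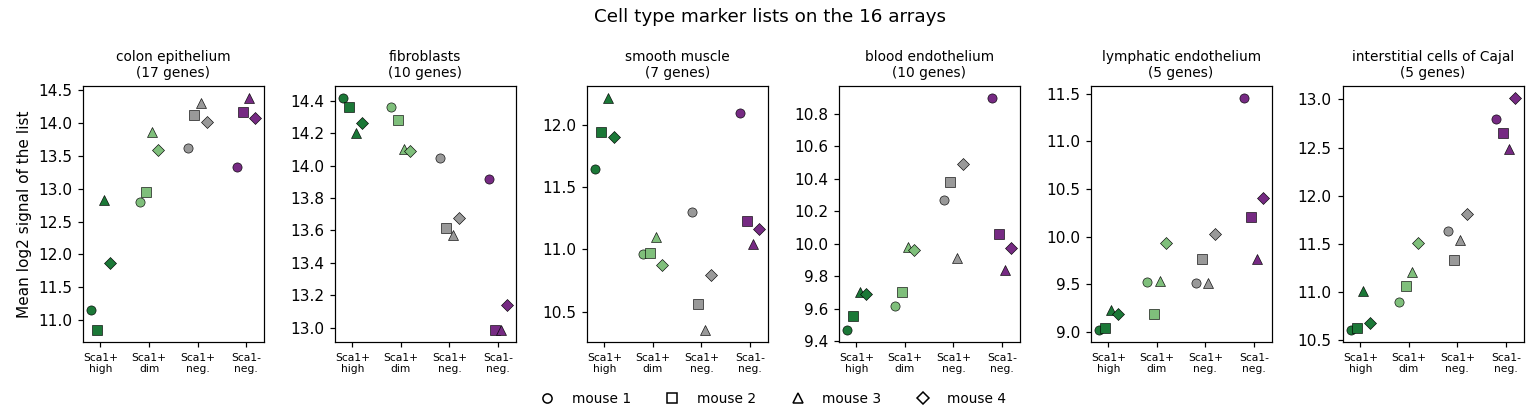
Mean log2 signal of 6 cell type marker lists on each array, with populations along the x axis and mice as symbols. Epithelial markers were lowest on the ZsGreen-high arrays, and the Sca1- array of mouse 1 stood above the other Sca1- arrays for fibroblasts, smooth muscle and both endothelia.

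Promoter sequences show how differently the genes of this family begin. RefSeq promoters (build GRCm38.p6, 250 bases before to 50 after a transcript start) were at hand for 6 of the 8 members. All 6 lie on the plus strand. Sema3a, Sema3c and Nrp2 are printed because Sema3a showed the widest range over the populations, Sema3c was the abundant ligand whose pattern differed from it, and Nrp2 is the neuropilin lowest in the same population as Sema3a. Capitals mark GGGCGG or its reverse complement (the GC box).
Sema3a, chr5:13396534-13396833: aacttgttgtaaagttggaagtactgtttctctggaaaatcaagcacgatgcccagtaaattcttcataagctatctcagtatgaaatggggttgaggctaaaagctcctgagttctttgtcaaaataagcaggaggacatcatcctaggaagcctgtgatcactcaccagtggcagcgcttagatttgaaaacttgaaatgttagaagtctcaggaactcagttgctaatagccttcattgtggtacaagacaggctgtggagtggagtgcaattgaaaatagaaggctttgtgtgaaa
Sema3c, chr5:17574566-17574865: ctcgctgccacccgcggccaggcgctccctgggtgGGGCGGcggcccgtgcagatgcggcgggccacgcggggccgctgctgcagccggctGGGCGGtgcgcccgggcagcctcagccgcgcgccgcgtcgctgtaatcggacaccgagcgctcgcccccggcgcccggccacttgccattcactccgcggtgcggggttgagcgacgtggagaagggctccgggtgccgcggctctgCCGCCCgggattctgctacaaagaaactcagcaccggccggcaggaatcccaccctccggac
Nrp2, chr1:62703067-62703366: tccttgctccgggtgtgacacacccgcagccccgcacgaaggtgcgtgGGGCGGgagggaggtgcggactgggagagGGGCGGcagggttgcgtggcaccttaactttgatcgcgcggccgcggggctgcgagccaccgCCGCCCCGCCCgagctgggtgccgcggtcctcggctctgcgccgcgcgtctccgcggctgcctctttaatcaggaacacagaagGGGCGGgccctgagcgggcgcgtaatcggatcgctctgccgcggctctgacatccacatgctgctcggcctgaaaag
The Sema3a window lies inside the annotated gene (chr5:13124822-13603485), so it belongs to one of the gene's transcript starts, whereas the Sema3c and Nrp2 windows span the left end of their genes.

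The Sema3a window was 41.3% G or C with 2 CpG dinucleotides and no GC box. The Sema3c window was 75.7% G or C with 42 CpG and 3 GC boxes, and the Nrp2 window was 70.7% G or C with 37 CpG and 5 GC boxes. Of the 32851 promoters in the table, 35.7% hold a GC box on either strand, and their median content of G and C was 52.7%. The Nrp1 window (64.0% G or C) held 1 GC box and the Sema3e window (50.7%) held 2, while the Sema3d window (49.7%) held none. The Gli consensus GACCACCCA, searched on both strands, is found in 0.253% of all promoters and in 0 of these 6. TATAAA on the gene's strand is found in 8.32% of all promoters and likewise in 0 of the 6. The GC box and TATAAA were chosen after the arrays had been seen, and a missing match says only that these letters are not in this window.

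In ZsGreen-high against Sca1+ ZsGreen-negative cells, 5 of the 7 members other than Sema3a were higher at an adjusted p under 0.05 and none was called lower. These were the ligands Sema3c, Sema3d and Sema3f and both neuropilins. Sema3b and Sema3e did not pass. Over all genes, 30.9% were called in this comparison, in either direction. The median log2 difference was 0.79 over these 7 members and -0.0019 over all genes. Since each array holds the pooled RNA of a sorted population, fewer cells of a type and less RNA per cell cannot be told apart in any of these values. Every difference is the first population minus the second, on the log2 scale, with its standard error, and adjusted p values come from limma over all 17097 genes.

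**Figure D2:**
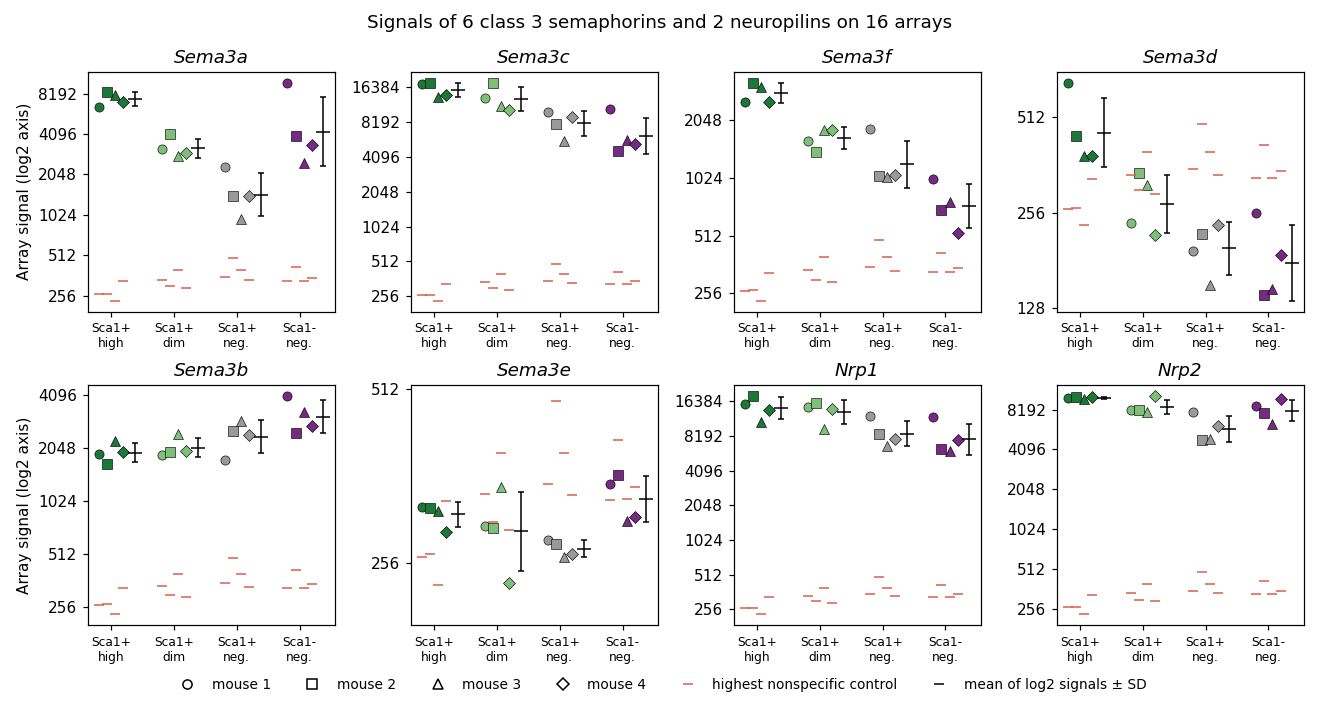
Array signal (log2 axis) of the main probe set of each member in the 4 populations. Symbols are mice, black bars give the mean of the log2 signals ± SD (n = 4), and red dashes give each array's highest nonspecific control, which lay between 234 and 488. Sema3a was lowest in Sca1+ ZsGreen-negative cells, Sema3f had its highest mean in ZsGreen-high and its lowest in Sca1- cells, and Sema3e stayed near the controls.

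Sema3a, the class 3 semaphorin known for repelling sensory and sympathetic axons through Nrp1, varied most. On the arrays of mice 1 to 4 its signal was 6520, 8414, 7977 and 7075 in ZsGreen-high cells and 3153, 4066, 2794 and 2974 in ZsGreen-dim cells. It was 2327, 1406, 946 and 1405 in Sca1+ ZsGreen-negative cells and 9858, 3930, 2485 and 3397 in Sca1- cells. The 3 Sca1+ populations did not overlap with one another, whereas the Sca1- arrays spanned from below the ZsGreen-dim range to above the ZsGreen-high range. ZsGreen-high cells exceeded Sca1+ ZsGreen-negative cells by 2.37 ± 0.33, in 4 of 4 mice, a description since this difference led to the choice of the family.

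In Sca1+ ZsGreen-negative against Sca1- cells, Sema3a fell by 1.56 ± 0.33 (adjusted p = 0.0203), in 4 of 4 mice. The Sca1+ ZsGreen-negative arrays here are those of the difference that led to the choice. The adjusted p was 0.197 without mouse 2, 0.0523 without mouse 3 and 0.189 without mouse 4. The array with the widest departure, Sca1- cells of mouse 1, did not carry the call: without it the difference was -1.15 with an adjusted p of 0.00986, an alternative chosen after its signals were seen. Against Sca1- cells, ZsGreen-high cells differed by 0.81 ± 0.33 (adjusted p = 0.0727, and 0.0345 with mouse as a block), with 3 of 4 mice higher. Without that array they differed by 1.22 (adjusted p = 0.00086). The ZsGreen-high arrays here are also those of the difference that led to the choice. Smooth muscle markers (7 of 9 measured) moved across the populations in a like order, with mean log2 signals of 11.93 in ZsGreen-high, 10.98 in ZsGreen-dim, 10.75 in Sca1+ ZsGreen-negative and 11.38 in Sca1- cells, and their part in the Sema3a result was not tested.

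All 3 Sema3a probe sets were highest in ZsGreen-high and lowest in Sca1+ ZsGreen-negative cells. The other probe sets spanned 1.67 and 1.53 on the log2 scale between these populations, and the main one spanned 2.37. The difference of Sca1+ ZsGreen-negative from Sca1- cells was -0.85 (adjusted p over all probe sets = 0.0855) and -1.09 (adjusted p over all probe sets = 0.0816) on the other probe sets. They agreed in direction with the main probe set but did not pass the threshold.

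Sema3c, a semaphorin known from development of the cardiac outflow tract, was high in both ZsGreen-positive populations. Its signals were 17454, 17832, 13600 and 14015 in ZsGreen-high cells and 13260, 17890, 11353 and 10416 in ZsGreen-dim cells. They were 10015, 7978, 5672 and 9071 in Sca1+ ZsGreen-negative cells and 10623, 4634, 5809 and 5308 in Sca1- cells. Neither ZsGreen-positive population overlapped with Sca1+ ZsGreen-negative cells, but ZsGreen-high and ZsGreen-dim arrays overlapped with each other.

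ZsGreen-high cells had more Sema3c than Sca1+ ZsGreen-negative cells by 0.96 ± 0.24 (adjusted p = 0.00739; 0.0472 without mouse 2) and than Sca1- cells by 1.32 ± 0.24 (adjusted p = 0.000636). In the order of levels, ZsGreen-high and ZsGreen-dim cells were separated by 0.27 ± 0.24 (adjusted p = 0.629, 95% interval -0.26 to 0.80), and Sca1+ ZsGreen-negative and Sca1- cells by 0.36 ± 0.24 (adjusted p = 0.676, interval -0.17 to 0.89). The steps within each of these pairs therefore did not pass the threshold. The second Sema3c probe set kept the order. It gave 0.06 ± 0.16 for ZsGreen-high against ZsGreen-dim cells (adjusted p over all probe sets = 0.895). For Sca1+ ZsGreen-negative against Sca1- cells it gave 0.50 ± 0.16 (adjusted p over all probe sets = 0.137).

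Sema3f, which acts mainly through Nrp2, had a lower mean at each step from ZsGreen-high over ZsGreen-dim and Sca1+ ZsGreen-negative to Sca1- cells. Its signals were 2549, 3199, 3037 and 2539 in ZsGreen-high cells, and 1589, 1392, 1822 and 1822 in ZsGreen-dim cells. They were 1839, 1040, 1029 and 1063 in Sca1+ ZsGreen-negative cells, and 1006, 693, 764 and 530 in Sca1- cells. ZsGreen-high arrays lay above all others, and Sca1- arrays lay below all others.

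The Sema3f difference of ZsGreen-high from Sca1+ ZsGreen-negative cells was 1.23 ± 0.20 (adjusted p = 0.000534), and from Sca1- cells 1.95 ± 0.20 (adjusted p = 1.26e-05), each in 4 of 4 mice. Sca1+ ZsGreen-negative cells exceeded Sca1- cells by 0.72 ± 0.20 (adjusted p = 0.0791, and 0.0495 with mouse as a block). That step was not seen on the second probe set, where the difference was 0.05 ± 0.12 (adjusted p over all probe sets = 0.956). The second probe set kept the difference between ZsGreen-high and Sca1+ ZsGreen-negative cells at 0.62 ± 0.12 (adjusted p over all probe sets = 0.00151). For ZsGreen-high against Sca1- cells it gave 0.67 ± 0.12 (adjusted p over all probe sets = 0.000552), below the 1.95 of the main probe set.

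Sema3d, a semaphorin that acts on endothelium and on migrating neural crest, was above background mainly in ZsGreen-high cells. Its signals were 656, 445, 385 and 387 in ZsGreen-high cells and 238, 340, 312 and 218 in ZsGreen-dim cells. They were 194, 220, 152 and 234 in Sca1+ ZsGreen-negative cells and 256, 141, 147 and 188 in Sca1- cells. It exceeded the highest nonspecific control on 4 of 4 ZsGreen-high arrays, 1 ZsGreen-dim array and 0 of the ZsGreen-negative arrays of either kind.

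With the control standing in for levels at background, Sema3d was at least 1.18-fold higher in ZsGreen-high than in Sca1+ ZsGreen-negative cells. Against Sca1- cells it was at least 1.29-fold higher. These bounds were not tested. The limma calls rest on signals as measured, those below the control included. They gave 1.21 ± 0.22 against Sca1+ ZsGreen-negative cells (adjusted p = 0.000973) and 1.36 ± 0.22 against Sca1- cells (adjusted p = 0.000239). The second Sema3d probe set exceeded the control on 1 ZsGreen-high array and on no other, so it adds no level.

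Sema3b, a ligand described as a tumour suppressor in human lung, ran the other way. Its signals were 1897, 1655, 2245 and 1935 in ZsGreen-high cells and 1880, 1953, 2463 and 1962 in ZsGreen-dim cells. They were 1761, 2543, 2904 and 2441 in Sca1+ ZsGreen-negative cells and 4045, 2481, 3260 and 2722 in Sca1- cells. Both ZsGreen-positive populations lay wholly below the Sca1- arrays, and all 3 Sca1+ populations overlapped.

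Against Sca1- cells, Sema3b fell by 0.68 ± 0.17 in ZsGreen-high cells (adjusted p = 0.00485) and by 0.58 ± 0.17 in ZsGreen-dim cells (adjusted p = 0.0303), in 4 of 4 mice each. The ZsGreen-dim call was lost in 9 of 14 alternatives, and the ZsGreen-high call in 3. Without mouse 2 the adjusted p for ZsGreen-dim cells was 0.0961. Against Sca1+ ZsGreen-negative cells the difference of ZsGreen-high cells was -0.30 ± 0.17 (adjusted p = 0.188, interval -0.67 to 0.06). The 3 Sema3b probe sets did not share one order: 1 of them was lowest in Sca1- cells, where the main probe set was highest. On the other probe sets neither fall passed. ZsGreen-high against Sca1- cells gave -0.26 (adjusted p over all probe sets = 0.144) and 0.08 (adjusted p over all probe sets = 0.801). ZsGreen-dim against Sca1- cells gave -0.18 (adjusted p over all probe sets = 0.42) and 0.06 (adjusted p over all probe sets = 0.882).

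Sema3e, which signals through plexin D1 without needing a neuropilin, was near background everywhere. The main probe set gave 320, 319, 315 and 289 in ZsGreen-high cells and 297, 294, 346 and 236 in ZsGreen-dim cells. It gave 281, 276, 262 and 265 in Sca1+ ZsGreen-negative cells and 351, 363, 303 and 307 in Sca1- cells. It exceeded the highest control on 3 ZsGreen-high arrays and 1 Sca1- array, 2 of its other 3 probe sets exceeded it on no array, and no fold is given.

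Nrp1, the neuropilin that binds Sema3a and VEGF, was highest in the ZsGreen-positive populations. Its signals were 15394, 18260, 10956 and 13675 in ZsGreen-high cells and 14642, 15848, 9365 and 14085 in ZsGreen-dim cells. They were 12181, 8481, 6781 and 7664 in Sca1+ ZsGreen-negative cells and 12059, 6289, 6134 and 7539 in Sca1- cells. ZsGreen-high arrays overlapped with both ZsGreen-negative populations through mouse 1, yet within each of mice 1, 3 and 4 both ZsGreen-positive arrays lay above both ZsGreen-negative arrays.

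ZsGreen-high cells exceeded Sca1+ ZsGreen-negative cells in Nrp1 by 0.74 ± 0.24 (adjusted p = 0.0275; 0.171 without mouse 2), and Sca1- cells by 0.90 ± 0.24 (adjusted p = 0.00821; 0.119 without mouse 2). Neither call was made without mouse 2. The differences in those fits were 0.62 from Sca1+ ZsGreen-negative cells, with 16% of all genes called, and 0.68 from Sca1- cells, with 22.5%. The difference of ZsGreen-high from ZsGreen-dim cells was 0.12 ± 0.24 (adjusted p = 0.864, interval -0.40 to 0.63), and that of Sca1+ ZsGreen-negative from Sca1- cells was 0.15 ± 0.24 (adjusted p = 0.92, interval -0.37 to 0.67). The 3 Nrp1 probe sets gave 0.74 to 0.88 for ZsGreen-high against Sca1+ ZsGreen-negative cells.

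Nrp2, which binds Sema3f and VEGF-C, had the tightest ZsGreen-high values of the family. They were 10077, 10173, 9778 and 10167, against 8200, 8107, 7823 and 10385 in ZsGreen-dim cells. Sca1+ ZsGreen-negative cells gave 7842, 4814, 4900 and 6199, and Sca1- cells gave 8664, 7670, 6364 and 9917. ZsGreen-high arrays lay above all Sca1+ ZsGreen-negative arrays, and Sca1+ ZsGreen-negative cells were the lowest population in each of mice 1, 3 and 4.

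Nrp2 was higher in ZsGreen-high than in Sca1+ ZsGreen-negative cells by 0.79 ± 0.15 (adjusted p = 0.00159; 0.0362 without mouse 2), in 4 of 4 mice. Next in order came the ZsGreen-dim and Sca1- populations, which differed by 0.09 ± 0.15 (adjusted p = 0.76, interval -0.25 to 0.43). ZsGreen-high cells differed from Sca1- cells by 0.32 ± 0.15 (adjusted p = 0.123, and 0.0491 with mouse as a block). Sca1+ ZsGreen-negative against Sca1- cells gave -0.47 ± 0.15 (adjusted p = 0.165), and 0.0496 with mouse as a block. The second Nrp2 probe set was likewise highest in ZsGreen-high cells and lowest in Sca1+ ZsGreen-negative cells.

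**Figure D3:**
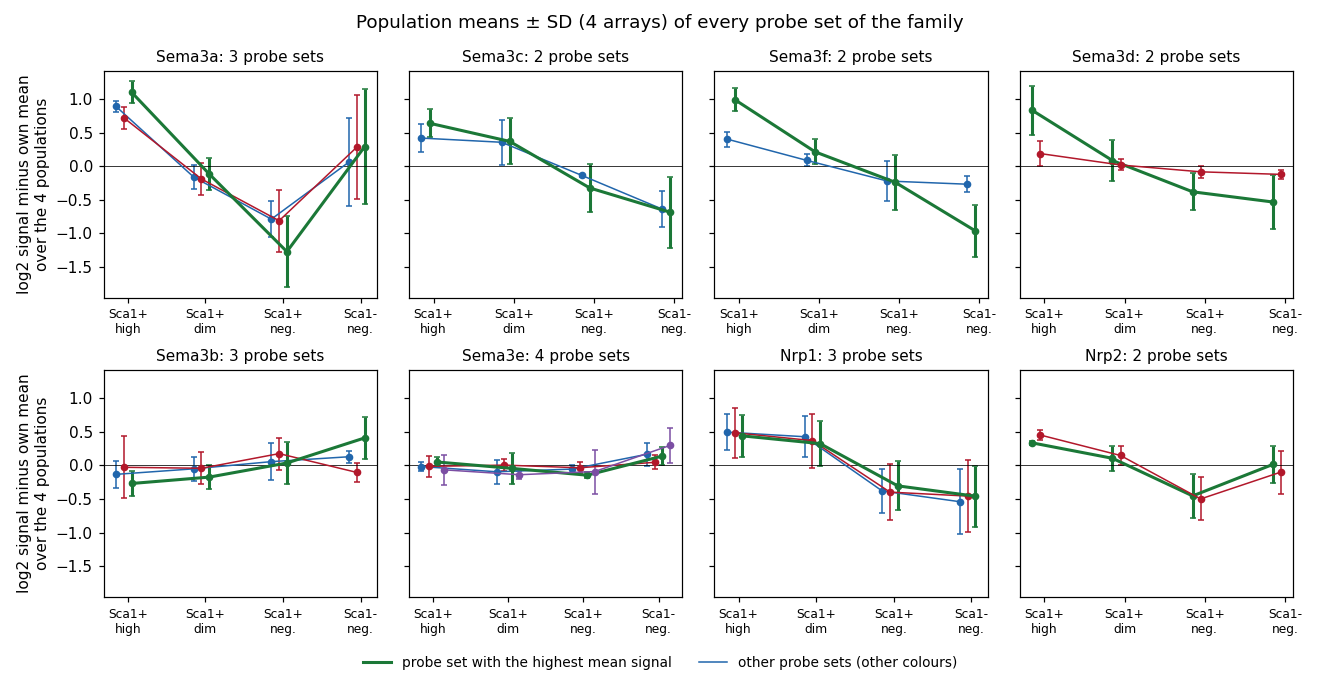
Population means ± SD (n = 4) of all 21 probe sets, each centred on its own mean over the 4 populations (log2). The 3 Sema3a and the 3 Nrp1 probe sets follow one another, the second Sema3f probe set is flat between the ZsGreen-negative populations, and Sema3b probe sets part in Sca1- cells.

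The other comparisons are counted over all 8 members. ZsGreen-dim against Sca1+ ZsGreen-negative cells gave 0 of 8 calls with limma, with 5 members at an unadjusted p under 0.05, where 1.5% of all genes were called. Sema3a differed by 1.15 ± 0.33 (adjusted p = 0.0869), Nrp2 by 0.56 ± 0.15 (adjusted p = 0.0774), Sema3c by 0.69 ± 0.24 (adjusted p = 0.129) and Nrp1 by 0.63 ± 0.24 (adjusted p = 0.153), each higher in 4 of 4 mice. With mouse as a block these 4 passed, in a fit that called 13.9% of all genes. The adjusted p values were 0.0167 for Sema3a, 0.00972 for Nrp2, 0.0368 for Sema3c and 0.0164 for Nrp1. For Sema3a, the Sca1+ ZsGreen-negative arrays are those of the difference that led to the choice. Leaving out mouse 1 called 5 members, beside 9.01% of all genes, and leaving out only the Sca1- array of mouse 1 called 3, beside 7.83%.

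ZsGreen-high against ZsGreen-dim cells also gave 0 of 8 calls with limma, with 3 at an unadjusted p under 0.05, where 1.42% of all genes were called. These 3 were the ligands that did not overlap between the populations: Sema3a at 1.22 ± 0.33 (adjusted p = 0.0787), Sema3f at 0.77 ± 0.20 (adjusted p = 0.0639) and Sema3d at 0.75 ± 0.22 (adjusted p = 0.0959). With mouse as a block they passed, with adjusted p of 0.0185 for Sema3a, 0.0222 for Sema3f and 0.0492 for Sema3d, in a fit that called 7.51% of all genes. The ZsGreen-high arrays of Sema3a are those of the difference that led to the choice. Groups without overlap made up 11.8% of all genes in this comparison. Without mouse 1, 2 members were called, beside 3.7% of all genes, and without its Sca1- array 3, beside 4.92%.

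In Sca1+ ZsGreen-negative against Sca1- cells, 1 of 8 members was called, the fall of Sema3a given above, where 2.45% of all genes were called. No member was called without mouse 2, 3 or 4, beside 0.901%, 1.32% and 0.778% of all genes in those fits, and 2 were called without mouse 1, beside 3.5% of all genes. With mouse as a block, 3 were called, Sema3a, Sema3f and Nrp2, beside 3.72% of all genes. Interstitial cell of Cajal markers (5 of 5 measured) had a mean log2 signal of 11.58 ± 0.20 in Sca1+ ZsGreen-negative and 12.74 ± 0.23 in Sca1- cells, and enteric glia markers (5 of 6 measured) 9.81 ± 0.12 and 10.92 ± 0.39 in the same order (SD, n = 4). Their part in these differences was not tested.

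Against Sca1- cells, ZsGreen-high cells showed 4 members higher (Sema3c, Sema3d, Sema3f and Nrp1) and Sema3b lower, where 35.9% of all genes were called. Without mouse 2, 4 of these 5 calls remained by count, Nrp1 being lost, beside 22.5% of all genes. ZsGreen-dim cells showed Sema3c at 1.05 ± 0.24 (adjusted p = 0.0101), Sema3f at 1.18 ± 0.20 (adjusted p = 0.00149) and Nrp1 at 0.78 ± 0.24 (adjusted p = 0.0408) higher than Sca1- cells, and Sema3b lower, where 13.9% of all genes were called. Of these 4, only Sema3f passed without mouse 2 (adjusted p = 0.0257), beside 3.58% of all genes. The second Sema3f probe set gave 0.35 ± 0.12 for ZsGreen-dim against Sca1- cells and did not pass (adjusted p over all probe sets = 0.0655). The comparisons share arrays, so their calls are not independent of each other.

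**Figure D4:**
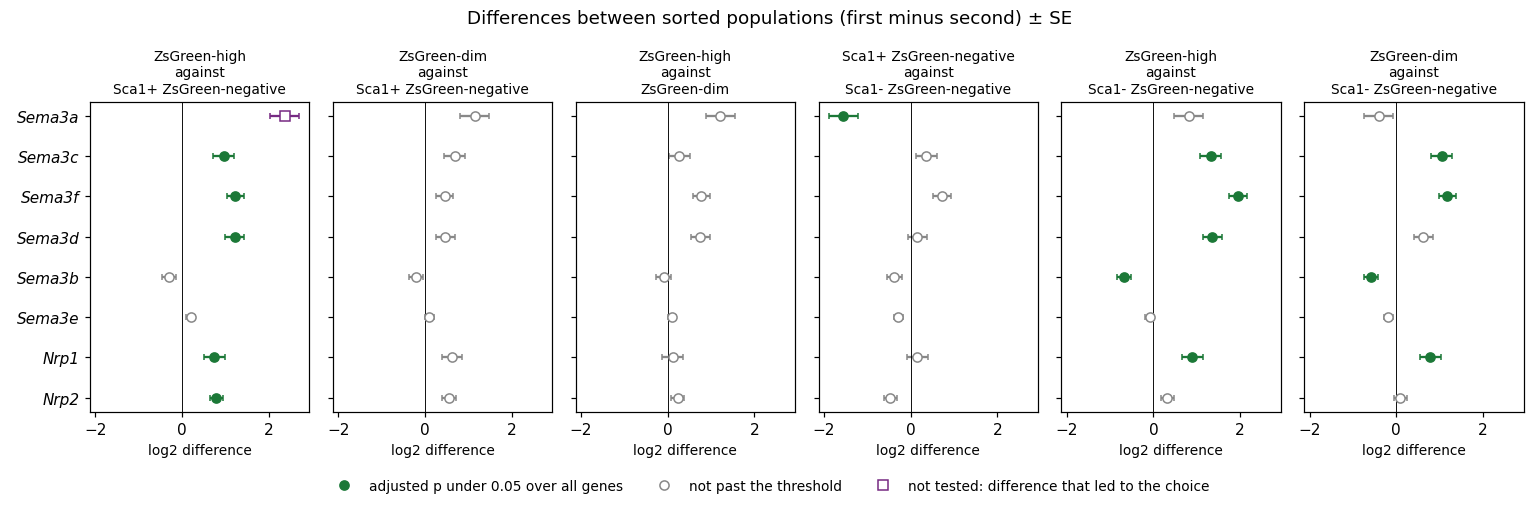
Differences between populations (log2, first minus second) ± SE for the 8 members in 6 comparisons, with filled points at an adjusted p under 0.05 over all genes. The open square is the Sema3a difference that led to the choice of the family, shown without a test. Sema3c, Sema3d, Sema3f, Nrp1 and Nrp2 are filled for ZsGreen-high against Sca1+ ZsGreen-negative cells, and only Sema3a is filled for Sca1+ ZsGreen-negative against Sca1- cells.

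Epithelial markers differed with the ZsGreen label and are given beside these results. Their mean log2 signal was 11.68 ± 0.88 in ZsGreen-high, 13.30 ± 0.51 in ZsGreen-dim, 14.01 ± 0.29 in Sca1+ ZsGreen-negative and 13.98 ± 0.46 in Sca1- cells (SD, n = 4). Fibroblast markers averaged 14.31 ± 0.10 in ZsGreen-high, 14.21 ± 0.13 in ZsGreen-dim, 13.73 ± 0.22 in Sca1+ ZsGreen-negative and 13.26 ± 0.45 in Sca1- cells. Endothelial genes bear on this family too, since endothelium uses neuropilins: the blood endothelium list (10 of 10 measured) averaged 9.60 ± 0.11 in ZsGreen-high, 9.81 ± 0.18 in ZsGreen-dim, 10.26 ± 0.25 in Sca1+ ZsGreen-negative and 10.19 ± 0.48 in Sca1- cells. The mean of this list was lowest in ZsGreen-high cells, where the Nrp1 mean was highest. The part of endothelial cells in the Nrp1 differences was not tested.

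With the epithelial mean as a covariate, 0 of the 7 members other than Sema3a were called by limma for ZsGreen-high against Sca1+ ZsGreen-negative cells, and 1 (Sema3f, unadjusted p = 0.0209) had an unadjusted p under 0.05. That fit called 1 gene in all, or 0.00585%. The differences were then 1.31 for Sema3a, as a description, 0.99 for Sema3f, 0.52 for Nrp2, -0.09 for Sema3c and -0.51 for Nrp1. The epithelial mean did not overlap between these populations, and the part it plays in each difference was not tested beyond that fit. In Sca1+ ZsGreen-negative against Sca1- cells the fit with the covariate gave -1.55 for Sema3a (adjusted p = 0.00582, with 3.83% of all genes called). The epithelial means of these 2 populations were close, so the covariate could hardly move this difference and decides nothing about it. The Sca1+ ZsGreen-negative arrays are again those of the difference that led to the choice. The ratio of 3′ to 5′ signals for Actb, a sign of RNA quality and amplification, was 1.24 ± 0.03 in ZsGreen-high, 1.15 ± 0.07 in ZsGreen-dim, 1.11 ± 0.01 in Sca1+ ZsGreen-negative and 1.11 ± 0.05 in Sca1- cells. Its part was not tested.

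Of 79 genes that act with the family or guide cells in other ways, 74 were measured, from lists written with earlier results of these arrays known. For ZsGreen-high against Sca1+ ZsGreen-negative cells 20 were higher and 13 lower, a share of 44.6% beside 30.9% of all genes, and 22 of these 33 calls were also made without mouse 2, where 16% of all genes were called. Of the 13 lower genes, Rnd1 was not well above background on any array of either population. Scaling to hybridization controls turned the sign of none of the 33, and the epithelial covariate turned the sign of 8.

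**Figure D5:**
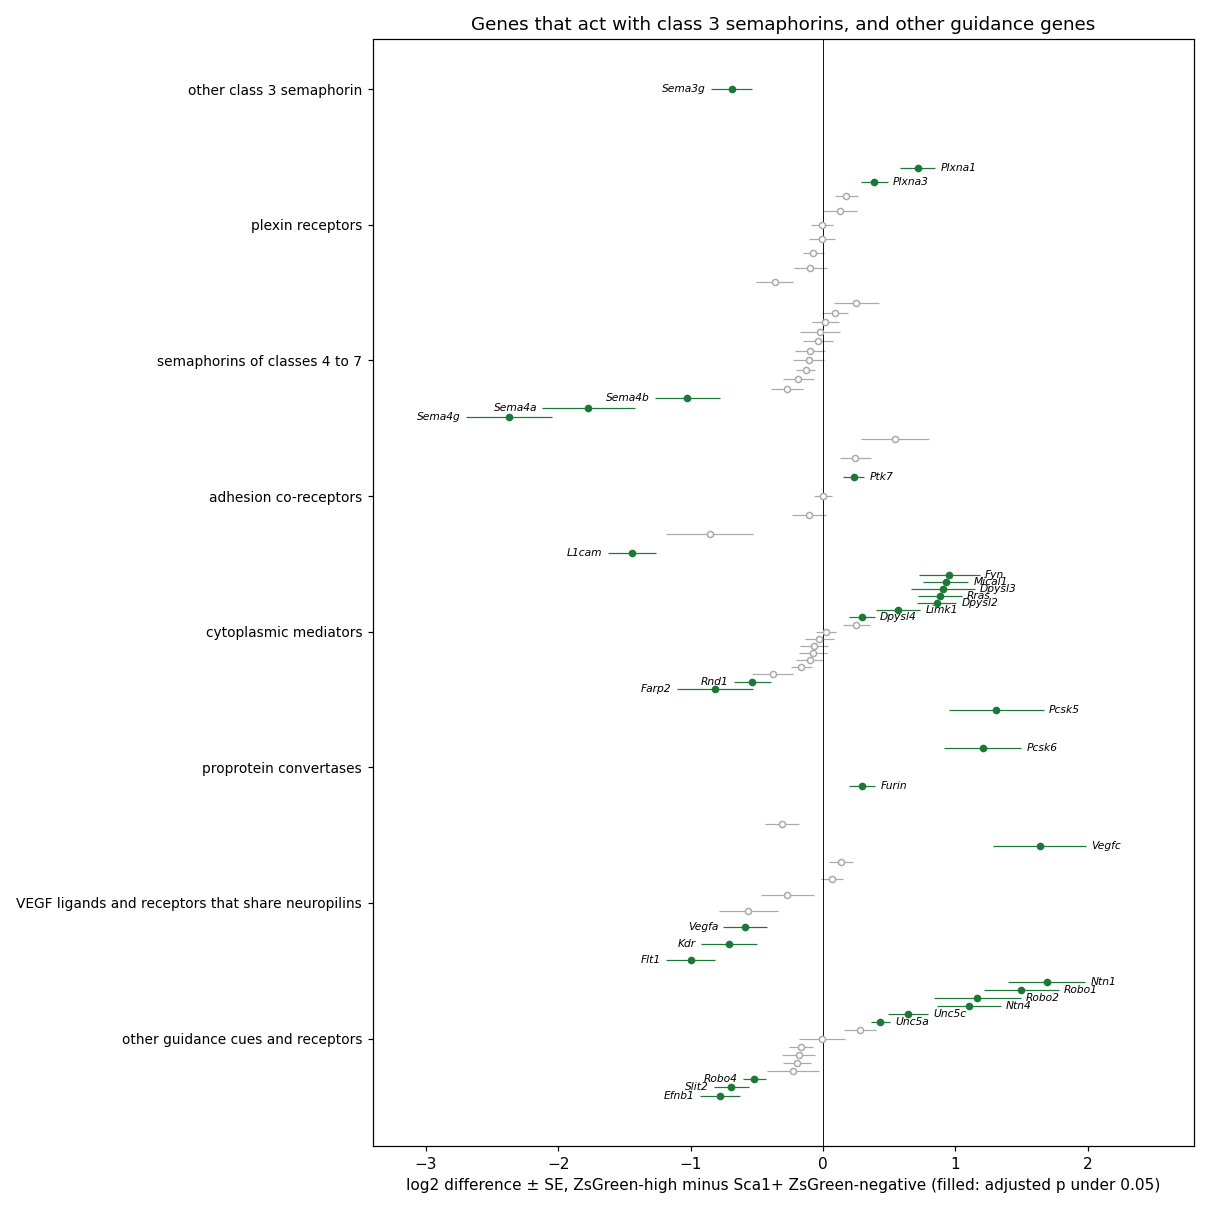
Differences (log2) ± SE for ZsGreen-high minus Sca1+ ZsGreen-negative cells of the 74 measured list genes, grouped by role, with filled and named points at an adjusted p under 0.05 over all genes. Pcsk5, Pcsk6, Vegfc, Ntn1 and Robo1 lie to the right, and Sema4g, Sema4a, L1cam and Flt1 lie to the left.

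Sema3g, the remaining class 3 semaphorin and an endothelial ligand, was lower in ZsGreen-high than in Sca1+ ZsGreen-negative cells. Its signals were 263, 281, 287 and 243 in ZsGreen-high cells and 539, 400, 449 and 361 in Sca1+ ZsGreen-negative cells, with no overlap. The difference was -0.69 ± 0.16 (adjusted p = 0.0038), between levels that passed the highest control on 3 of 4 arrays in each population. With the epithelial covariate it was -0.80.

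Of 9 plexins, which carry the semaphorin signal into the cell, 2 rose and the other 7 did not pass. The share called was 22.2%, below the 30.9% of all genes. Plxna1, a partner of neuropilins, rose by 0.71 ± 0.13 (adjusted p = 0.00114), with means of 3078 in ZsGreen-high and 1875 in Sca1+ ZsGreen-negative cells. Plxna3 rose by 0.39 ± 0.10 (adjusted p = 0.00898; 0.0794 without mouse 2). The median over the plexins was -0.01. With the epithelial covariate the values were 0.45 for Plxna1 and 0.03 for Plxna3.

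Of 13 semaphorins of classes 4 to 7, which are mostly membrane-bound, 3 fell and the other 10 did not pass. The share called was 23.1%, below the 30.9% of all genes. The differences were -2.37 ± 0.33 for Sema4g (adjusted p = 0.000242), -1.77 ± 0.35 for Sema4a (adjusted p = 0.00161) and -1.02 ± 0.25 for Sema4b (adjusted p = 0.00574). All 3 were low where the epithelial markers were low, and with the epithelial covariate the values were -0.40 for Sema4g, 0.36 for Sema4a and 0.03 for Sema4b. Sema4g was also the 1 list gene called between ZsGreen-high and ZsGreen-dim cells, at -1.62 ± 0.33 (adjusted p = 0.0271; 0.235 without mouse 2).

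Among 7 adhesion co-receptors, L1cam, which can join Nrp1 in a receptor for Sema3a, fell by 1.44 ± 0.18 (adjusted p = 0.00017). Ptk7, a kinase-like receptor that can join plexins, rose by 0.23 ± 0.08 (adjusted p = 0.0403; 0.0939 without mouse 2), and the other 5 did not pass. The share called was 28.6%, near the 30.9% of all genes. With the epithelial covariate the values were -1.12 for L1cam and 0.36 for Ptk7. L1cam was lower in ZsGreen-dim cells as well, with a difference of -0.89 ± 0.18 (adjusted p = 0.0345; 0.344 without mouse 2).

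Of 17 measured cytoplasmic mediators, which relay plexin signals to the cytoskeleton, 7 rose and 2 fell, where 30.9% of all genes were called. Farp2, named after its values were seen, had a difference of -0.81 ± 0.29 (adjusted p = 0.0429; 0.128 without mouse 2), and 0.38 with the epithelial covariate. Rnd1, likewise named late, also passed as lower, but between levels not well above background. The kinase Fyn rose by 0.96 ± 0.23 (adjusted p = 0.00558; 0.0534 without mouse 2), the actin oxidizing enzyme Mical1 by 0.93 ± 0.17 (adjusted p = 0.00104) and Dpysl3, a collapsin response mediator, by 0.91 ± 0.24 (adjusted p = 0.00987; 0.102 without mouse 2). The epithelial covariate gave 0.04 for Fyn, 0.29 for Mical1 and -0.24 for Dpysl3. In Sca1+ ZsGreen-negative against Sca1- cells, Dpysl4 of the same family fell by 0.39 ± 0.10 (adjusted p = 0.0497; 0.194 without mouse 2).

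Of 4 proprotein convertases, which cut class 3 semaphorins, 3 rose, where 30.9% of all genes were called. Pcsk5 rose by 1.31 ± 0.36 (adjusted p = 0.0121; 0.137 without mouse 2), with means of 12664 in ZsGreen-high and 5113 in Sca1+ ZsGreen-negative cells. Pcsk6 rose by 1.21 ± 0.29 (adjusted p = 0.00545; 0.0948 without mouse 2) and Furin by 0.30 ± 0.10 (adjusted p = 0.0341; 0.127 without mouse 2). All 3 calls were lost without mouse 2, and the epithelial covariate gave -0.31 for Pcsk5, 0.15 for Pcsk6 and 0.29 for Furin.

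Of 8 VEGF ligands and receptors, 1 rose and 3 fell, where 30.9% of all genes were called. Vegfc, a lymphatic growth factor that binds Nrp2, rose by 1.64 ± 0.35 (adjusted p = 0.00271), with means of 1942 in ZsGreen-high and 624 in Sca1+ ZsGreen-negative cells. The receptors Flt1 and Kdr had differences of -0.999 ± 0.19 (Flt1, adjusted p = 0.00114) and -0.71 ± 0.21 (Kdr, adjusted p = 0.0183; 0.19 without mouse 2). The blood endothelial list, which holds Kdr itself, was lowest in ZsGreen-high cells too. With the epithelial covariate the values were 0.06 for Vegfc, -0.55 for Flt1 and -0.45 for Kdr. In Sca1+ ZsGreen-negative against Sca1- cells, Vegfd, a ligand close to Vegfc, was higher by 1.87 ± 0.22 (adjusted p = 0.000213), with means of 1465 in Sca1+ ZsGreen-negative and 401 in Sca1- cells.

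Of 15 other guidance genes measured, 6 rose and 3 fell in ZsGreen-high cells, where 30.9% of all genes were called. The netrin Ntn1 rose by 1.69 ± 0.29 (adjusted p = 0.000751), and the Slit receptors Robo1 and Robo2 rose by 1.5 ± 0.28 (Robo1, adjusted p = 0.00128) and 1.17 ± 0.33 (Robo2, adjusted p = 0.0141; 0.119 without mouse 2). With the epithelial covariate the values were 0.63 for Ntn1, 0.45 for Robo1 and -0.30 for Robo2. In ZsGreen-dim against Sca1+ ZsGreen-negative cells, 1 list gene rose and 3 fell, none of which passed without mouse 2, where 0.0585% of all genes were called. Ntn4, a netrin of basement membranes, rose by 1.09 ± 0.24 (adjusted p = 0.0431). Slit2, a Robo ligand, fell by 1.03 ± 0.13 (adjusted p = 0.00165; 0.0909 without mouse 2). Robo4, a receptor of endothelium, fell by 0.41 ± 0.09 (adjusted p = 0.0362; 0.344 without mouse 2), and L1cam is given above.

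Over the 16 arrays, the genes with the most similar profiles were found by the root mean square difference of log2 signals, each gene centred on its own mean, among 12785 genes. For Sema3a these were Gfra2 (0.354), a receptor for neurturin, Myh11 (0.404), smooth muscle myosin, and Hhip (0.413), a Hedgehog-binding protein. Sema3c had closer neighbours, Tgfbr2 (0.133), Niban1 (0.16) and Fndc3b (0.162). Sema3f was nearest to Rbp4 (0.175), Gnai1 (0.201) and Agt (0.226), and Sema3d to Plekho2 (0.209), Atp10d (0.211) and Ankrd46 (0.228). The arrays share populations and mice, so these distances are a description only.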

How the data were processed

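Cells gated as Epcam- CD45- CD31- gp38+ from the colons of 4 mice were sorted into 4 populations. Each of the 16 samples was hybridized separately. Per the submitters' processing notes, Affymetrix Expression Console 1.1 was used; how signals were summarized and normalized is not given in the sources used here. What the authors deposited is a score: each of 45141 probe sets was standardized over the 16 arrays, per the file's own values. The design had foreseen log2 signals. Scores matched whole-number signals on a log scale, and these were recovered (Python 3.11.15 with numba 0.67.0, numpy 2.4.6 and pandas 2.3.3) for all 45141 probe sets, with recomputed scores within 1e-09. The recovery was tested on simulated data, where 1000 of 1000 probe sets came back exactly. Signals ran from 58 to 155937 and array medians from 661 to 686.

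The probe set of highest mean stood for each of 17097 genes. Populations were compared by lmFit and eBayes of limma 3.58.1 (R 4.3.3) on all 16 arrays, two-sided, adjusted by Benjamini-Hochberg over all genes, with a threshold of 0.05. P values measure the spread of arrays within populations, pooled over the 4 populations, with eBayes sharing information on spread between genes. Arrays of the same mouse were taken as independent in that fit. A gene on no array of a population above the highest of 23 nonspecific controls has a bound only. Members and lists were chosen with earlier results of these data known. Named are all members, Gli1, up to 3 called genes per list with the largest differences in each of the first 4 comparisons, and the 3 most similar genes of members that range over 1 log2 unit. Xist, Eif2s3y and marker genes outside this rule were named after their values were seen.

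The labels take all 4 populations from each mouse. Deviations correlated at 0.269 on average within a mouse and -0.0906 between mice (mouse 1 0.528, mouse 2 -0.0834, mouse 3 0.513, mouse 4 0.117), so mouse entered as a block in an alternative. Other alternatives were each mouse left out, 2 populations only, scaling to hybridization controls, quantile normalization, a filter on dim genes, the second probe set, all probe sets, an epithelial covariate and an intensity trend. Figures were drawn with matplotlib 3.10.9.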

Additional observations from a re-analysis of the deposited data

Results flagged for a closer look

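In 4 of 36 tests of 4 arrays each (8 members and Gli1 in 4 populations), the highest or lowest array lay apart from the other 3 by more than Dixon's 95% value. Chance gives about 1 in 20. Sema3f in Sca1+ ZsGreen-negative cells had a ratio of 0.944, with 1839 in mouse 1 against 1029 to 1063 in the other mice. Sema3e in ZsGreen-high cells had a ratio of 0.845, with 289 in mouse 4 against 315 to 320. Sema3b in ZsGreen-dim cells had a ratio of 0.842, with 2463 in mouse 3 against 1880 to 1962. Nrp2 in ZsGreen-dim cells had a ratio of 0.834, with 10385 in mouse 4 against 7823 to 8200.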

How the results depend on the processing

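Over 14 alternatives, 574 of the members' differences kept direction and side of the threshold, 50 newly passed, 34 no longer passed and 14 changed sign. These totals include the Sema3a difference that led to the choice of the family. ZsGreen-high against Sca1+ ZsGreen-negative cells called 5 of the 7 members other than Sema3a, and 0 of them with the epithelial covariate. ZsGreen-high against Sca1- cells called 5, and 1 with that covariate. ZsGreen-dim against Sca1+ ZsGreen-negative cells called 0, with 4 under the mouse block, 2 under hybridization scaling, 3 without the Sca1- array of mouse 1 (chosen after the data were seen), and 0 to 5 without a mouse. ZsGreen-high against ZsGreen-dim cells called 0, with 3 under the block, 2 with these 2 populations only, 6 under hybridization scaling, 1 on the second probe set, 3 without that array, and 0 to 3 without a mouse. Sca1+ ZsGreen-negative against Sca1- cells called 1, with 3 under the block, 0 with 2 populations only, 2 under hybridization scaling, 0 on the second probe set, 2 without that array, and 0 to 2 without a mouse. ZsGreen-dim against Sca1- cells called 4, with 2 with 2 populations only, on the second probe set and with the covariate, and 1 to 4 without a mouse. The mouse block changed no other count of members by over 1.5 times. Under hybridization scaling, all genes moved by a median of 0.38 for ZsGreen-high against Sca1+ ZsGreen-negative cells, where 11146 genes were called and 92.0% of them were higher, against 5280 and 54.9%. That scaling adds 1 value to every gene of an array. Where no share of all genes is given for a fit and comparison, its count of members is not read as a result about the members. The cause of the other shifts was not tested.

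Under hybridization scaling, which moved all genes by medians of 0.38 for ZsGreen-high against Sca1+ ZsGreen-negative, 0.33 against ZsGreen-dim and 0.42 against Sca1- cells, small negative values turned sign by construction, for Sema3b (0.077 for ZsGreen-high against Sca1+ ZsGreen-negative, 0.22 against ZsGreen-dim) and Sema3e (0.35 against Sca1-, adjusted p = 0.0352). With the epithelial covariate signs changed for ZsGreen-high against Sca1+ ZsGreen-negative cells in Sema3b (0.066), Sema3c (-0.094) and Nrp1 (-0.51), against ZsGreen-dim cells in Sema3b (0.16), Sema3c (-0.46) and Nrp1 (-0.76), and against Sca1- cells in Sema3a (-0.24) and Nrp1 (-0.34). The second probe set gave -0.047 for Sema3e in ZsGreen-dim against Sca1+ ZsGreen-negative cells. Sema3d in Sca1+ ZsGreen-negative against Sca1- cells was -0.012 without mouse 2 (-0.012 to 0.34 over the mice left out), and Sema3a in ZsGreen-dim against Sca1- cells was 0.0088 without mouse 1 (-0.60 to 0.0088). Signals near the controls limit what can be said of Sema3d and Sema3e.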

Other observations

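Nrp1 was highest, within each population, on the arrays on which Xist was at background. These were the arrays of mice 1 and 2 in ZsGreen-high cells (15394 and 18260, with 10956 and 13675 on the others) and in ZsGreen-dim cells (14642 and 15848, with 9365 and 14085 on the others). In Sca1+ ZsGreen-negative cells it was the array of mouse 1 alone (12181, with 6781 to 8481 on the others), and in Sca1- cells again that of mouse 1 (12059, with 6134 to 7539 on the others). These arrays also had the highest fibroblast and the lowest epithelial marker means of their populations. Their fibroblast means were 14.42 and 14.36 in ZsGreen-high, 14.36 and 14.28 in ZsGreen-dim, 14.05 in Sca1+ ZsGreen-negative and 13.92 in Sca1- cells. Xist and marker content therefore cannot be told apart here. With so few arrays the Nrp1 pattern is a description, and no test was made.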
